A study of Homo sapiens with 2 samples.

Results

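Between the cells with almost no mitochondrial RNA and the ordinary cells of this naive human embryonic stem cell culture lay 541 cells that drew 1% to below 3% of their UMIs (unique molecular identifiers, each standing for 1 captured RNA molecule) from mitochondrial genes. They were chosen by that share alone, among barcodes with at least 1000 detected genes and under 20% mitochondrial UMIs, and made up 541 of 15637 kept cells. They are called intermediate cells here. Cells below 1% are called low cells, of which there were 4050, and cells from 3% to below 20% ordinary cells, of which there were 11046. The intermediate cells numbered 363 of 9084 kept cells (4.00%, 95% interval 3.60% to 4.42%) in the ASO-L1 library and 178 of 6553 (2.72%, 2.34% to 3.14%) in the SO-L1 library.

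Both libraries came from H9, an established human embryonic stem cell line, held in the naive state in RSeT medium and sequenced with the droplet-based 10x 3' v3 chemistry. ASO-L1 cells received 25 nM of a dye-labelled oligonucleotide antisense to LINE1 RNA, and SO-L1 cells 25 nM of its sense control. From transfection to collection at 48 h all cells of both libraries also had 10 nM DZNep and 5 nM TSA, and for the first 24 h 0.7 µM Trans-ISRIB, 5 µM emricasan and 10 µM Y-27632. Emricasan blocks caspases, TSA histone deacetylases, Trans-ISRIB the integrated stress response and Y-27632 the kinase ROCK. Dye-positive cells were sorted, so cells that took up no oligonucleotide are missing from both libraries. Each group is 1 library of 1 cell line, so no p-value is given. Intervals are exact binomial 95% intervals, and they cover counting error only.

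The mitochondrial genome encodes core subunits of the respiratory chain, which are transcribed inside the organelle, while the other subunits, the mitochondrial ribosomal proteins and the polymerase POLRMT are encoded in the nucleus. In human pluripotent cells the transcription factor p53 answers DNA damage and other stress by switching on genes such as CDKN1A, a cell cycle inhibitor, and MDM2, which encodes the ligase that limits p53 itself. POU5F1, SOX2 and NANOG are the core factors of pluripotency, and KLF17 and DPPA3 are used as markers of the naive state.

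The cells were labelled as embryonic stem cells, and the intermediate cells carried the core factors POU5F1, SOX2 and NANOG. POU5F1 stood at 744 CPM, counts scaled to 1000000 non-mitochondrial UMIs, in ASO-L1 and 970 CPM in SO-L1. All 17 listed general pluripotency genes could be tested in both libraries, but the rule for that counts the levels of low and ordinary cells too. Of these genes 13 in ASO-L1 and 8 in SO-L1 were at least 1.5-fold below ordinary cells. Of the naive markers, KLF17 had only 55 UMIs in ASO-L1 intermediate cells and 2 UMIs in SO-L1 intermediate cells. Barcode sequences present in both libraries numbered 6105, of 11659 ASO-L1 and 13070 SO-L1 barcodes. Many of them held under 10% of the UMIs of the same barcode in the other library and are called copies. None of the ASO-L1 intermediate cells and 23 of the 178 SO-L1 intermediate cells were copies, with a median of 1819 UMIs, or 1.36% of the partner's. Of the partners of these 23, 19 were themselves intermediate. Without copies the shares were 4.00% in ASO-L1 and 2.46% in SO-L1, and each result below is given without copies where that moved it beyond its interval or by more than 1.5 times.

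The intermediate cells were shallower than the cells on either side. Their median was 16508 UMIs and 5004 genes in ASO-L1, where low cells had 46767 UMIs and ordinary cells 56490. In SO-L1 the median was 5230.5 UMIs and 2736.5 genes (6667 UMIs and 3171 genes without copies), against 34484 UMIs in low cells and 45282 in ordinary cells. Cells under 8000 UMIs made up 28.1% of intermediate cells in ASO-L1, against 9.86% of low and 2.96% of ordinary cells. In SO-L1 they made up 59.6% of intermediate cells, against 13.6% of low and 6.62% of ordinary cells. Read the other way, and without copies, intermediate cells were 19.7% of all kept ASO-L1 cells under 8000 UMIs and 3.48% of those from 8000 to below 64000 UMIs. In SO-L1 the shares were 21.0% and 1.29%.

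At the top of the depth range the libraries parted. ASO-L1 had 27 intermediate cells with at least 128000 UMIs, 7.44% of its intermediate cells, against 0.908% of low and 1.404% of ordinary cells. These 27 were 19.6% (13.3% to 27.2%) of all 138 ASO-L1 cells of that depth. SO-L1 had 0 such intermediate cells among 5 cells of that depth. The 60 ASO-L1 intermediate cells with at least 64000 UMIs lay nearer the upper bound, at a median of 2.47% mitochondrial UMIs, and held 57.7% of all UMIs of the intermediate cells. In SO-L1, 5 such cells held 20.6%. Whether barcodes of that depth hold more than 1 cell was not tested. Because summed levels follow the deepest cells, the levels of cells from 8000 to below 64000 UMIs are given beside them, a range set after the depths had been seen. It holds 201 intermediate, 1507 low and 4074 ordinary cells in ASO-L1 and 67, 1421 and 3694 in SO-L1, without copies. This range is called matched depth below, although it only bounds the depth and the intermediate cells stay shallower within it. The medians there were 20290, 42183 and 49840 UMIs in ASO-L1 and 16710, 36454 and 44039 UMIs in SO-L1.

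**Figure D1:**
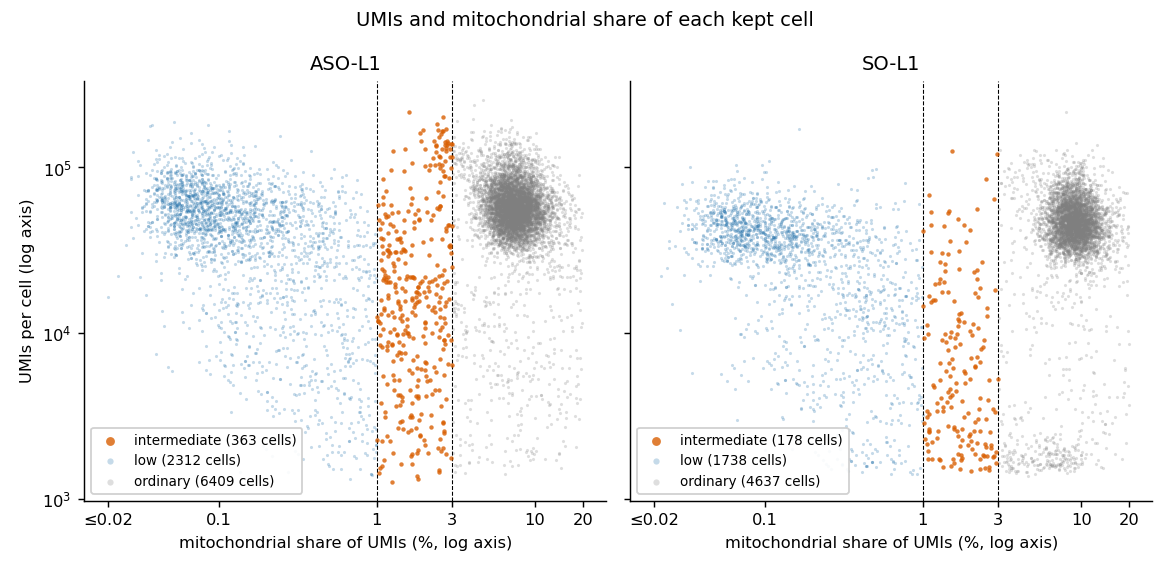
Each point is 1 kept cell, by its mitochondrial share of UMIs (horizontal, percent, log axis, shares under 0.02% drawn at 0.02) and its UMIs (vertical, log axis), with dashed lines at 1% and 3%. The 363 ASO-L1 and 178 SO-L1 intermediate cells form a thin bridge between the low and the ordinary cells, reach down to the shallowest cells in both libraries, and in ASO-L1 also include a group above 100000 UMIs close to the 3% line.

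Along the mitochondrial share, and over all depths, genes that separate low from ordinary cells stood near the low level at 1% and were still far from the ordinary level at 3%. In both libraries 155 genes were at least 2-fold higher in low than in ordinary cells and 32 at least 2-fold lower, with MTRNR2L12 left out of the second set because it is a nuclear near-copy of a mitochondrial gene. Low and ordinary cells chose these genes, so only the intermediate cells' place among them is a result. Copies are left out of the sums by range. The 155 genes summed to 35083 CPM in ASO-L1 cells of 1% to below 1.5%, close to the 38129 CPM of cells of 0.5% to below 1%. At 2.5% to below 3% they summed to 30093 CPM, at 3% to below 4% to 24534 CPM, and at 7% to below 10% to 10249 CPM. In SO-L1 the same sums were 23467 CPM at 1% to below 1.5%, 21841 CPM at 2.5% to below 3% on 14 cells, 14660 CPM at 3% to below 4% and 7533 CPM at 7% to below 10%. The 32 genes ran the other way, at 1467 CPM in ASO-L1 and 2382 CPM in SO-L1 cells of 1% to below 1.5% and at 4787 and 5138 CPM in cells of 7% to below 10%.

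Among the shallowest cells the classes lay closer together. Under 8000 UMIs, without copies, the 155 genes summed to 26601 CPM in intermediate, 28099 in low and 21343 in ordinary cells of ASO-L1. In SO-L1 the sums were 21507, 19192 and 15408 CPM, with the intermediate cells highest. From 8000 to below 64000 UMIs they were 31810, 36193 and 10946 CPM in ASO-L1 and 22779, 23948 and 7579 CPM in SO-L1. Shallow ordinary cells thus carried more of the 155 genes than deeper ordinary cells in both libraries. For these genes the place of the intermediate cells between the classes is read mainly from the deeper cells. The 32 genes lower in low cells differed by depth. Under 8000 UMIs their sum was lowest in intermediate cells of both libraries. It was 2207 CPM against 2430 in low cells of ASO-L1, and 2642 against 3030 in SO-L1. From 8000 to below 64000 UMIs that held in ASO-L1 only, at 1627, 1772 and 4352 CPM in intermediate, low and ordinary cells. In SO-L1 the intermediate cells lay between at that depth, at 2445, 2196 and 5057 CPM.

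In ASO-L1 the levels passed both bounds with no jump, while in SO-L1 few cells lay beside them. Copies are counted in these cells. Just inside the lower bound in ASO-L1 the 155 genes stood at 36469 CPM (61 cells of 1% to below 1.2%), and just outside it at 38744 CPM (71 cells of 0.8% to below 1%). At the upper bound they stood at 28388 CPM in 57 cells of 2.6% to below 3% and at 26128 CPM in 68 cells of 3% to below 3.4%. In SO-L1 the lower bound had 24325 CPM inside (29 cells) and 19062 CPM outside (54 cells), and the upper bound 25875 CPM inside (16 cells, 8 of them copies) and 16182 CPM outside (33 cells, 14 of them copies).

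**Figure D2:**
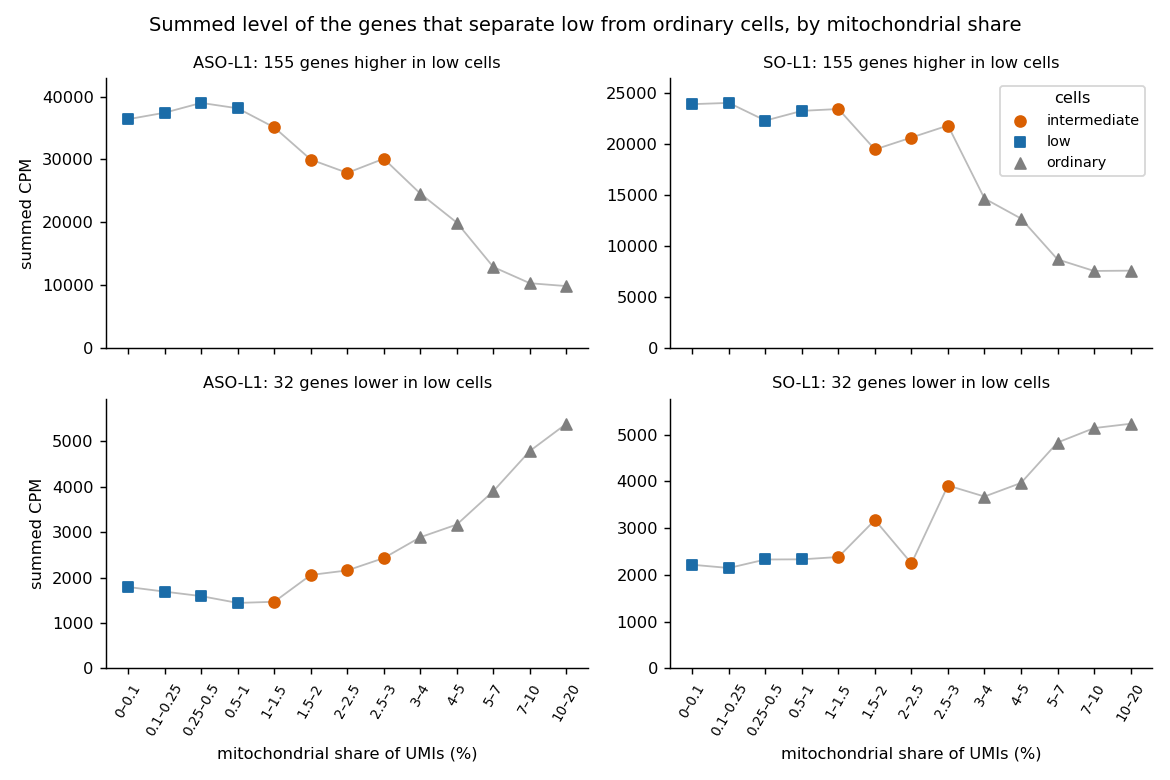
Summed CPM of the 155 genes higher (top) and the 32 genes lower (bottom) in low than in ordinary cells, by range of the mitochondrial share of UMIs in percent, copies left out; circles are intermediate, squares low and triangles ordinary cells. In ASO-L1 the intermediate cells carry 35083 CPM of the 155 genes in the 1% to 1.5% range and 30093 CPM in the 2.5% to 3% range, between the low cells and the 24534 CPM of the 3% to 4% range.

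Gene by gene, the intermediate cells lay much nearer to the low than to the ordinary cells. The position of a gene is the log2 ratio of intermediate over ordinary cells divided by that of low over ordinary cells, so that 0 is the ordinary and 1 the low level. Positions from 0.8 to 1.2 are called low level and those from 0.2 to 0.8 between. In ASO-L1 the median position was 0.89 (quartiles 0.77 and 1.09) for the 1239 genes at least 2-fold higher in low cells and 0.85 (0.74 and 0.95) for the 492 genes at least 2-fold lower, 9.53% and 3.78% of the genes tested. In SO-L1 it was 0.95 (0.79 and 1.18) for 301 higher genes and 0.72 (0.54 and 0.87) for 52 lower genes, 4.15% and 0.717% of those tested. Mitochondrial RNA itself, whose place the choice of cells fixes, stood at position 0.33 in ASO-L1 and 0.41 in SO-L1 on the same log2 scale. On a linear scale the gap was smaller, and for the lower genes of SO-L1 the order turned. Mitochondrial RNA stood at 0.74 and 0.82 there, and the medians were 0.83 and 0.90 for higher and lower genes in ASO-L1 and 0.92 and 0.79 in SO-L1.

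Few genes remained at the ordinary level. Of the 1239 higher genes in ASO-L1, 662 were at the low level, 369 between, 206 beyond the low cells and 2 at the ordinary level. In SO-L1, 150 of 301 were at the low level, 78 between, 73 beyond and 0 at the ordinary level. Of the lower genes, 288 of 492 in ASO-L1 were at the low level, 182 between and 6 at the ordinary level, and in SO-L1 16 of 52 were at the low level, 32 between and 3 at the ordinary level. Single genes matched less well across libraries: of the 155 higher genes shared by both, 84 had the same class in both, and of 33 shared lower genes 15. At matched depth the medians were 1.02 and 1.13 for higher and lower genes in ASO-L1 and 0.92 and 0.94 in SO-L1, and with each cell given the same weight 1.08 and 0.86 in ASO-L1 and 1.07 and 0.80 in SO-L1.

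**Figure D3:**
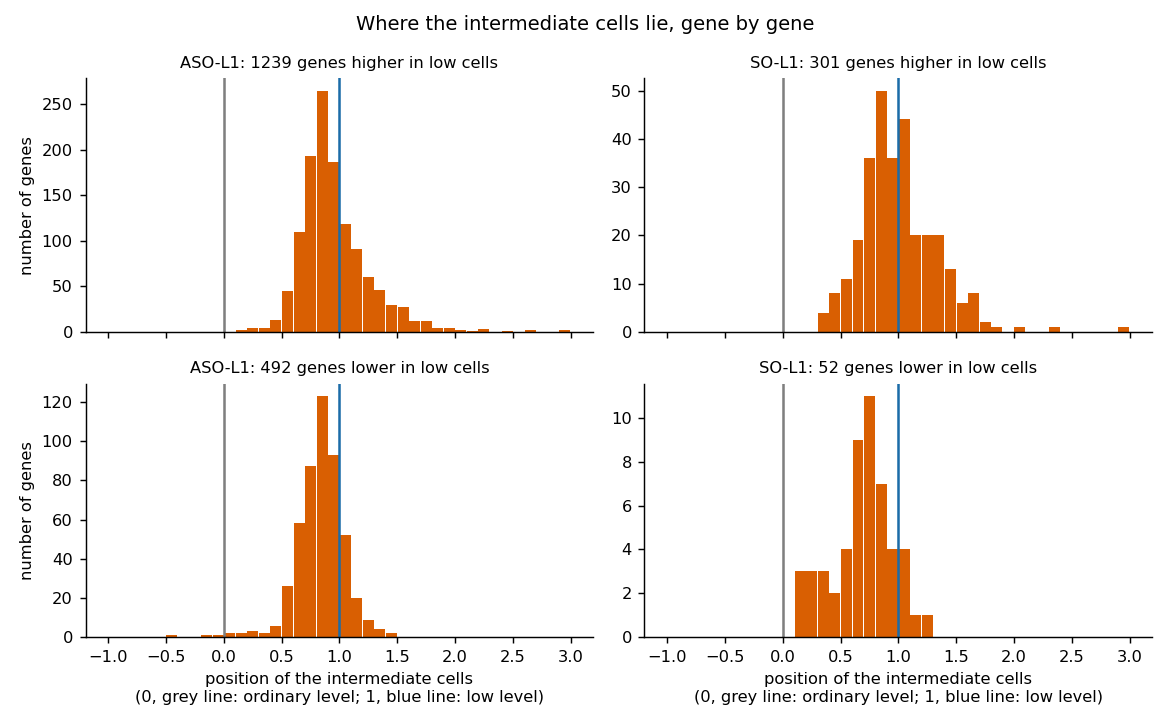
Number of genes by position of the intermediate cells, for genes at least 2-fold higher (top) or lower (bottom) in low than in ordinary cells; 0 is the ordinary and 1 the low level, and the last bar on each side also holds genes outside the axis. Most genes fall between 0.5 and 1.5, with medians of 0.89 and 0.85 in ASO-L1 and 0.95 and 0.72 in SO-L1.

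Genes already at the low level in both libraries included several of the strongest genes of the low cells. ANXA1, a calcium-dependent membrane-binding protein (ENSG00000135046, GRCh38 chromosome 9, 73151757 to 73170393, plus strand), stood at 311 CPM in intermediate, 441 in low and 27.9 in ordinary cells of ASO-L1. In SO-L1 it stood at 77.7, 98.0 and 2.46 CPM. That is 11.1-fold (10.7 to 11.6) and 31.5-fold (26.3 to 37.6) above the ordinary cells, and 0.704 (0.681 to 0.728) and 0.792 (0.677 to 0.922) times the low cells. RRAD, a small GTPase, had positions of 0.95 and 0.88. S100A6 and S100A14, calcium-binding proteins, had positions of 0.80 and 0.85 for S100A6 and 0.85 and 0.86 for S100A14. MX1, an interferon-induced GTPase, had 0.88 and 0.84, and the placental-type phosphatase gene ALPG 0.85 and 0.84. At matched depth S100A6, S100A14 and ALPG lay between in ASO-L1, at positions of 0.65, 0.71 and 0.74, and stayed at the low level in SO-L1. S100A6 then stood at 364 CPM in intermediate, 990.5 in low and 56.0 in ordinary cells of ASO-L1, against 750.2, 1226 and 103 CPM over all depths. RRAD stood above low cells in ASO-L1 there, at 147 CPM against 108 CPM. In SO-L1 such levels rested on few cells: without the 5 intermediate cells with most of its UMIs, ANXA1 stood at 29.7 CPM in SO-L1 and 276 CPM in ASO-L1.

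Genes that lay between in both libraries were found on both sides. Among those higher in low cells were CCNA1, a cyclin of the germ line and early embryo, ISG15, an interferon-induced ubiquitin-like protein, the LIM-domain gene CRIP1, the inducible heat shock gene HSPA1A, the membrane protein gene MYADM and the endogenous retroviral locus ERVK-28. CCNA1 stood at 285 CPM in intermediate, 419 in low and 61.4 in ordinary cells of ASO-L1 and at 54.6, 134 and 8.99 CPM in SO-L1. The SO-L1 level rested on 121 UMIs in 30 intermediate cells, and 1 cell held 50 of these UMIs (41.3%). ISG15 stood at 150, 267 and 58.2 CPM in ASO-L1 and at 95.7, 263 and 38.4 CPM in SO-L1, the same order in both. HSPA1A stood at 117, 170 and 28.2 CPM in ASO-L1 and at 31.6, 48.9 and 13.6 CPM in SO-L1, but it shares nearly all its sequence with HSPA1B, so its level is uncertain. At matched depth the SO-L1 levels lay nearer to ordinary cells, at 36.7, 139 and 6.59 CPM for CCNA1 and 16.2, 50.7 and 11.9 CPM for HSPA1A.

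Among the genes lower in low cells that lay between were DNMT3B, a DNA methyltransferase, ROR1, a receptor for Wnt ligands, PPP2R2B, a phosphatase subunit, NKAIN3, CDK14, a cyclin-dependent kinase, and HMGA2, an architectural chromatin protein. DNMT3B stood at 145 CPM in intermediate, 109 in low and 427 in ordinary cells of ASO-L1 and at 298, 246 and 566 CPM in SO-L1. The intermediate cells thus had 0.340 (0.324 to 0.356) and 0.526 (0.486 to 0.567) times the ordinary level. This order did not hold at matched depth, where DNMT3B stood at 80.1, 117 and 417 CPM in ASO-L1 and at 197, 239 and 557 CPM in SO-L1, lowest in the intermediate cells. ROR1 stood at 19.7, 13.1 and 57.3 CPM in ASO-L1 and at 36.6, 23.1 and 94.6 CPM in SO-L1. HMGA2 stood at 31.1, 14.5 and 52.8 CPM in ASO-L1 and at 28.9, 22.4 and 53 CPM in SO-L1. Over all depths both genes thus had the order low, intermediate, ordinary in each library. At matched depth ROR1 in SO-L1 was lowest in the intermediate cells, at 18.3, 22.3 and 90.9 CPM, and HMGA2 in ASO-L1 came near the ordinary level, at 44.0, 16.002 and 53.6 CPM. PPP2R2B came to the low level at matched depth, at positions of 0.92 in ASO-L1 and 0.94 in SO-L1, and NKAIN3 did so in ASO-L1 (0.98) but not in SO-L1 (0.40). The single gene at the ordinary level in both libraries was MTRNR2L12, at 21.2, 1.51 and 34.9 CPM in ASO-L1 and 23.0, 1.04 and 47.6 CPM in SO-L1. Its reads cannot be told apart with certainty from those of mitochondrial MT-RNR2, so its level is uncertain.

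Cells were also placed one by one. Each cell with at least 4000 non-mitochondrial UMIs was thinned to that number and scored by the log2 ratio of its UMIs from 32 genes at least 4-fold higher in low cells over those from the 2 genes at least 4-fold lower, 1 UMI added to each. The score could be given to 305 of 363 ASO-L1 and 101 of 178 SO-L1 intermediate cells. Its median was 4.00 in intermediate, 4.52 in low and 1.0 in ordinary cells of ASO-L1, and 2.46, 2.58 and 0 in SO-L1. The 95th percentile of ordinary cells was exceeded by 154 of 305 intermediate cells (50.5%, 44.7% to 56.2%) in ASO-L1, against 62.1% of low and 4.84% of ordinary cells. In SO-L1 it was exceeded by 63 of 101 (62.4%, 52.2% to 71.8%), against 58.9% of low and 4.08% of ordinary cells.

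Few intermediate cells scored like ordinary cells only. Below the 5th percentile of low cells lay 12 of 305 (3.93%) in ASO-L1, where 35.5% of ordinary and 2.58% of low cells lay there. In SO-L1 it was 4 of 101 (3.96%), against 19.5% of ordinary and 1.48% of low cells. The remaining 139 ASO-L1 and 34 SO-L1 cells fell where the 2 ranges overlap. Within 0.5 of the 95th percentile of ordinary cells were 82 ASO-L1 and 37 SO-L1 intermediate cells, so the shares depend on that bound. One of the 2 lower genes is MTRNR2L12. With 155 genes against 32 genes, none an MTRNR2L gene, 41.0% of intermediate cells in ASO-L1 and 76.2% in SO-L1 exceeded the 95th percentile of ordinary cells, against 57.5% and 73.5% of low cells.

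Genes that stood apart from both neighbours were sought next, at least 1.5-fold from low and from ordinary cells with both intervals excluding 1. In ASO-L1 308 of 13000 genes (2.37%) were above both and in SO-L1 155 of 7256 (2.14%), but only 16 of the 7255 genes tested in both (0.221%) were above both in each library. Of the 308 ASO-L1 genes, 25 were among those tested in both. Below both were 15 (0.115%) in ASO-L1, 6 (0.0827%) in SO-L1 and 1 gene (0.0138%) in each. Many of these rested on a few cells, and 3 of the 16 kept a 1.5-fold difference in both libraries without the 5 intermediate cells with most UMIs of the gene: IER3, CADM1 and RGS16. Removing cells from the intermediate side only makes that a strict criterion. The floor for testing, 50 expected UMIs, uses the mean of all 3 classes, so genes high in intermediate cells pass it more easily. Without the intermediate level in that mean, IER3 and CADM1 would not have passed in SO-L1. The counts and shares above and below both depend on that filter. From 200 expected UMIs no gene was called in both libraries.

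IER3, an immediate early gene that answers stress and p53 (ENSG00000137331, GRCh38 chromosome 6, 30743199 to 30744554, minus strand), stood farthest from both neighbours. It stood at 177 CPM in intermediate, 52.8 in low and 22.5 in ordinary cells of ASO-L1, with 2194, 5760 and 7859 UMIs behind these levels. In SO-L1 it stood at 159, 17.0 and 16.7 CPM, on 351, 979 and 3246 UMIs. The intermediate cells were 3.36-fold (3.20 to 3.53) above low and 7.87-fold (7.502 to 8.25) above ordinary cells in ASO-L1, and 9.31-fold (8.22 to 10.5) and 9.47-fold (8.46 to 10.6) in SO-L1. UMIs of IER3 were found in 219 of the 363 ASO-L1 and 52 of the 178 SO-L1 intermediate cells. Without the top 5 cells it stood at 127 CPM in ASO-L1 and 50.4 CPM in SO-L1, and at matched depth at 351, 69.0 and 23.1 CPM in ASO-L1 and 194, 17.2 and 17.0 CPM in SO-L1.

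CADM1, an adhesion molecule of the immunoglobulin family (ENSG00000182985, chromosome 11, 115169218 to 115504957, minus strand), stood at 19.8 CPM in intermediate, 9.88 in low and 8.78 in ordinary cells of ASO-L1. In SO-L1 it stood at 67.3, 21.6 and 12.1 CPM, 3.12-fold (2.61 to 3.70) above low cells. RGS16, which shortens G protein signalling (ENSG00000143333, chromosome 1, 182598623 to 182604408, minus strand), stood at 86.4, 50.1 and 46.6 CPM in ASO-L1 and at 70.4, 33.1 and 30.8 CPM in SO-L1. In both genes low and ordinary cells of ASO-L1 differed by less than 1.5-fold from each other. FERMT1, the integrin activator kindlin-1 (ENSG00000101311, chromosome 20, 6074845 to 6123544, minus strand), was the 1 gene below both. It stood at 20.8, 31.2 and 32.5 CPM in ASO-L1 and at 37.5, 58.7 and 56.3 CPM in SO-L1, that is 0.666 (0.584 to 0.756) and 0.638 (0.507 to 0.793) times the low level.

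At matched depth 47 of 5334 genes tested in both libraries (0.881%) were above both neighbours in each and 4 (0.075%) below. Of the 47, 5 kept a 1.5-fold difference without the top 5 cells, IER3, CADM1, the stress gene GADD45A, the cell cycle regulator SERTAD1 and the snoRNA host gene SNHG19. SERTAD1 stood at 289 CPM in intermediate, 119 in low and 25.1 in ordinary cells of ASO-L1 and at 74.7, 31.8 and 12.5 CPM in SO-L1. SNHG19 stood at 147, 81.6 and 61.3 CPM in ASO-L1 and at 105, 33.7 and 31.6 CPM in SO-L1. In SO-L1, IER3, CADM1, SERTAD1 and SNHG19 reached the floor of 50 expected UMIs only with the intermediate level counted. The 4 below both were FERMT1, the deubiquitinase gene USP44, the sulfotransferase gene CHST9 and PPP1R16B. USP44 stood at 67.0, 102 and 174 CPM in ASO-L1 and at 77.6, 141 and 148 CPM in SO-L1. SERTAD1, SNHG19, USP44, CHST9 and PPP1R16B were named after their values were seen.

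**Figure D4:**
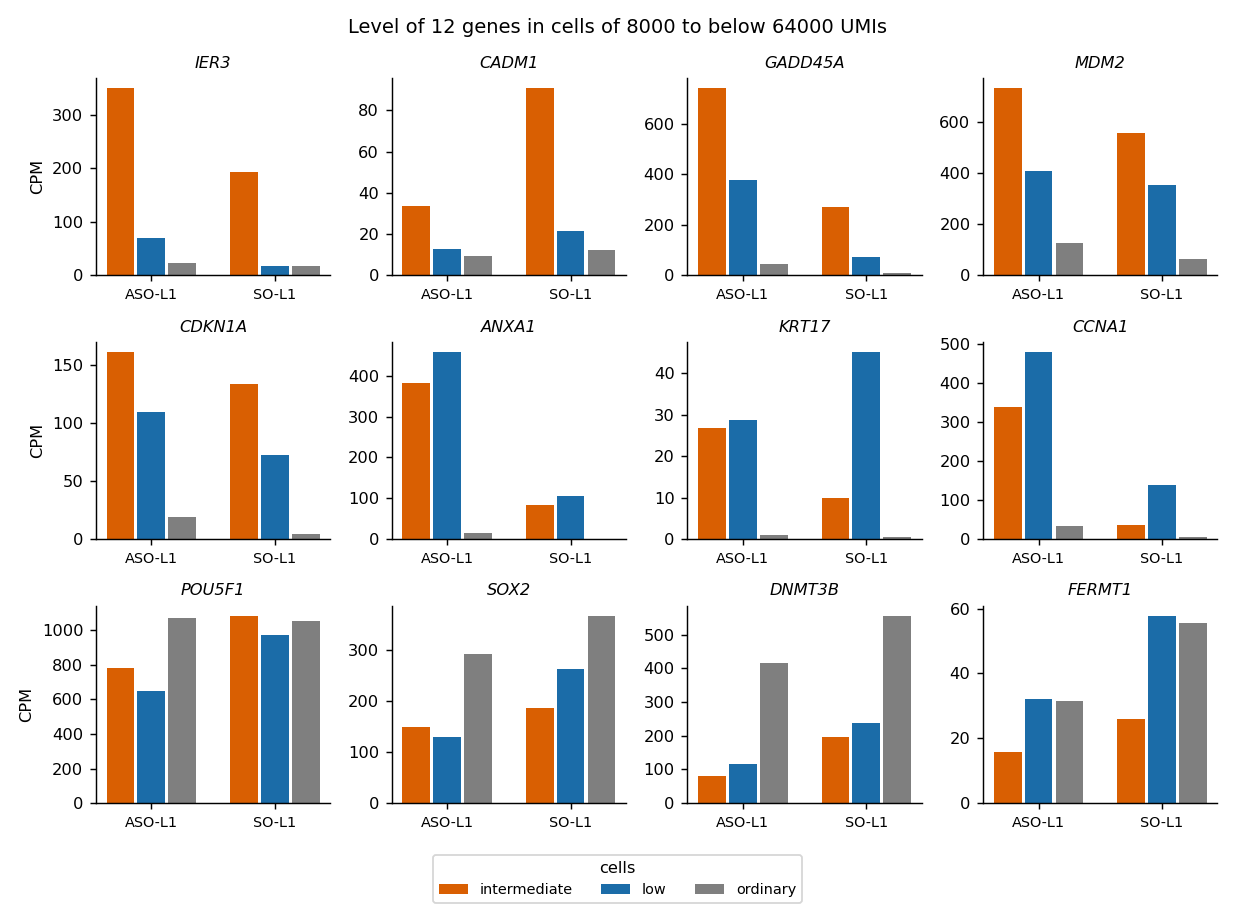
CPM of 12 genes in intermediate, low and ordinary cells (bars left to right) of 8000 to below 64000 UMIs, without copies, with ASO-L1 left and SO-L1 right in each panel. IER3, CADM1, GADD45A, MDM2 and CDKN1A are highest in the intermediate cells of both libraries and FERMT1 and DNMT3B lowest, while ANXA1, KRT17 and CCNA1 are higher in low cells, KRT17 by little in ASO-L1.

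Summed over all depths, targets of p53 stood above ordinary cells in both libraries, and at matched depth a good part of them above low cells as well. Under 8000 UMIs the list was not compared, and CDKN1A and GDF15 had little or no excess over ordinary cells there. Over ordinary cells, 16 of 25 tested targets stood 1.5-fold or more above the ordinary level in ASO-L1 and 0 as far below it (median log2 ratio 1.22), beside 20.5% of all genes higher and 12.3% lower. In SO-L1 19 of 22 were higher and 0 lower (median 1.69), beside 12.6% and 5.43% of all genes. Over low cells 2 of 25 were higher in ASO-L1 and 3 of 22 in SO-L1, and 0 lower (medians 0.14 and 0.19), beside 3.25% and 3.2% of all genes higher and 1.38% and 0.772% lower. At matched depth 11 of 25 were higher than in low cells in ASO-L1 and 6 of 21 in SO-L1, and 0 lower (medians 0.54 and 0.41), beside 6.65% and 3.07% of all genes higher and 5.78% and 2.36% lower. Over ordinary cells of that depth 22 of 25 were higher in ASO-L1 and 19 of 21 in SO-L1, and 0 lower, beside 23.9% and 10.6% of all genes higher and 18.3% and 9.6% lower. These shares of all genes are the ones to read every list count below against.

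GADD45A, a stress sensor and p53 target (ENSG00000116717, chromosome 1, 67685061 to 67688338, plus strand), stood at 407 CPM in intermediate, 295 in low and 48.8 in ordinary cells of ASO-L1. In SO-L1 it stood at 204, 69.9 and 9.68 CPM, 2.92-fold (2.64 to 3.22) above low and 21.1-fold (19.0 to 23.4) above ordinary cells. MDM2 (ENSG00000135679, chromosome 12, 68808176 to 68850686, plus strand) stood at 427, 331 and 128 CPM in ASO-L1 and at 497, 354 and 69.4 CPM in SO-L1. At matched depth MDM2 stood at 735, 409 and 127 CPM in ASO-L1 and at 557, 354 and 64.9 CPM in SO-L1, the same order in both. CDKN1A (ENSG00000124762, chromosome 6, 36676460 to 36687339, plus strand) stood at 105, 96.8 and 23.0 CPM in ASO-L1 and at 107, 71.7 and 5.57 CPM in SO-L1. GDF15, a secreted stress factor, was 0.673 times the low level in ASO-L1 and 1.24-fold above it in SO-L1, at 57.1, 84.8 and 10.9 CPM in ASO-L1 and at 78.1, 63.2 and 3.45 CPM in SO-L1. In the intermediate cells under 8000 UMIs, without copies, CDKN1A stood at 155 CPM in ASO-L1 and 60.4 CPM in SO-L1. Shallow ordinary cells stood at 151 and 94.1 CPM. GDF15 stood at 87.7 and 101 CPM in these intermediate cells, against 85.6 and 118 CPM in shallow ordinary cells. The excess of both genes over ordinary cells was thus small or absent at that depth.

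Immediate early genes, which answer signals and stress within minutes, were above ordinary cells for 13 of 15 tested members in ASO-L1 (median log2 ratio 1.47) and 6 of 6 in SO-L1 (1.16), with 0 lower, beside 20.5% and 12.6% of all genes higher. Over low cells 5 of 15 and 2 of 6 were higher, with 0 lower (medians 0.14 and 0.45), beside 3.25% and 3.2% of all genes. IER3 is a member of that list too. ATF3, a stress-induced transcription factor, stood at 134, 124 and 29.5 CPM in ASO-L1 and at 79.0, 50.2 and 9.66 CPM in SO-L1. JUN, a subunit of AP-1, stood at 378, 343 and 115 CPM in ASO-L1 and at 98.9, 78.6 and 42.2 CPM in SO-L1. JUND did not follow them, at 449, 601 and 241 CPM in ASO-L1 and 353, 440 and 166 CPM in SO-L1, lower in intermediate than in low cells.

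Genes of the integrated stress response, a brake on translation that works through ATF4, were above ordinary cells for 11 of 25 in ASO-L1 and 12 of 18 in SO-L1, with 1 and 0 lower, beside 20.5% and 12.6% of all genes higher and 12.3% and 5.43% lower. Over low cells their medians had opposite signs, -0.16 in ASO-L1 and 0.11 in SO-L1. DDIT3 stood at 216, 264 and 71.3 CPM in ASO-L1 and at 116, 114 and 8.82 CPM in SO-L1. SLC3A2, a chain of amino acid transporters, stood at 1162, 1387 and 415 CPM in ASO-L1 and at 553, 420 and 199 CPM in SO-L1. In ASO-L1 both genes lay between their neighbours, while in SO-L1 neither was lower than in low cells. Heat shock genes had 8 of 15 above ordinary cells in ASO-L1 (median 0.77) and 1 of 11 in SO-L1 (-0.02), the second near the 12.6% of all genes. HSPB1, a small heat shock protein, stood at 759, 1002 and 291 CPM in ASO-L1 and at 393, 499 and 282 CPM in SO-L1, below low cells in both. Host genes of snoRNAs, whose spliced RNAs are rapidly degraded when translated, had 8 of 16 and 7 of 16 above ordinary cells, beside 20.5% and 12.6% of all genes, and over low cells 0 of 16 in ASO-L1 and 2 of 16 in SO-L1 (medians 0.03 and 0.29). SNHG12 stood at 84.5, 99.1 and 34.3 CPM in ASO-L1 and at 48.3, 30.2 and 16.5 CPM in SO-L1. At matched depth SNHG12 was above low cells in ASO-L1 too, at 129.6 CPM against 116 CPM. SNHG1 stood at 383, 375 and 236 CPM in ASO-L1 and at 169, 119 and 59.8 CPM in SO-L1.

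Genes of the BCL2 family and of cell death had 5 of 21 and 4 of 14 above ordinary cells and 1 lower in each, and over low cells 0 higher in either library and 1 lower in ASO-L1. In ASO-L1 the share above ordinary cells is near the 20.5% of all genes, and in SO-L1 12.6% of all genes were higher. At matched depth 9 of 17 in ASO-L1 and 3 of 11 in SO-L1 were above ordinary cells, beside 23.9% and 10.6% of all genes. There 2 in ASO-L1 and 0 in SO-L1 were below. Over low cells of that depth 3 of 17 and 1 of 11 were higher and 1 and 0 lower, beside 6.65% and 3.07% of all genes higher. BIK, a death-promoting member, stood at 89.96, 81.8 and 15.8 CPM in ASO-L1 and at 36.1, 34.6 and 7.70 CPM in SO-L1. PMAIP1, another p53-induced member, stood at 304, 262 and 255 CPM in ASO-L1 and at 337, 273 and 203 CPM in SO-L1. At matched depth it stood 1.5-fold or more above both neighbours, at 457, 296 and 275 CPM in ASO-L1 and 441, 277 and 207 CPM in SO-L1. PMAIP1 did not keep that difference without its top 5 cells in either library.

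Keratins, annexins and S100 genes, among them structural and membrane-binding proteins of epithelial cells, had medians above ordinary but below low cells. Over ordinary cells 15 of 22 were higher and 1 lower in ASO-L1 (median 1.32) and 7 of 15 higher and 1 lower in SO-L1 (0.55), beside 20.5% and 12.6% of all genes higher. Over low cells 0 were higher and 6 of 22 lower in ASO-L1 (-0.43) and 0 higher and 3 of 15 lower in SO-L1 (-0.35), beside 1.38% and 0.772% of all genes lower. KRT17, a stress keratin, stood at 15.3, 41.0 and 2.11 CPM in ASO-L1 and, on 20 UMIs in the intermediate cells, at 9.03, 44.9 and 0.629 CPM in SO-L1. At matched depth its gap to low cells in ASO-L1 nearly closed, at 26.9 CPM in intermediate and 28.7 CPM in low cells, while SO-L1 kept 9.87 CPM against 45.2 CPM. The list did not follow KRT17 there. In ASO-L1 10 of 19 members were below low cells (median -0.72) and in SO-L1 3 of 15 (-0.36), with 0 higher. Of all genes 5.78% and 2.36% were below low cells at that depth. S100A11 stood at 1114, 1494 and 790 CPM in ASO-L1 and at 662, 847 and 454 CPM in SO-L1. At matched depth S100A11 was below its ordinary level in ASO-L1, at 741 CPM against 808 CPM, and above it in SO-L1, at 714 CPM against 453 CPM. Interferon response genes had 7 of 19 and 4 of 9 above ordinary cells and 2 of 19 and 1 of 9 below low cells, beside 20.5% and 12.6% of all genes above ordinary and 1.38% and 0.772% below low cells.

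**Figure D5:**
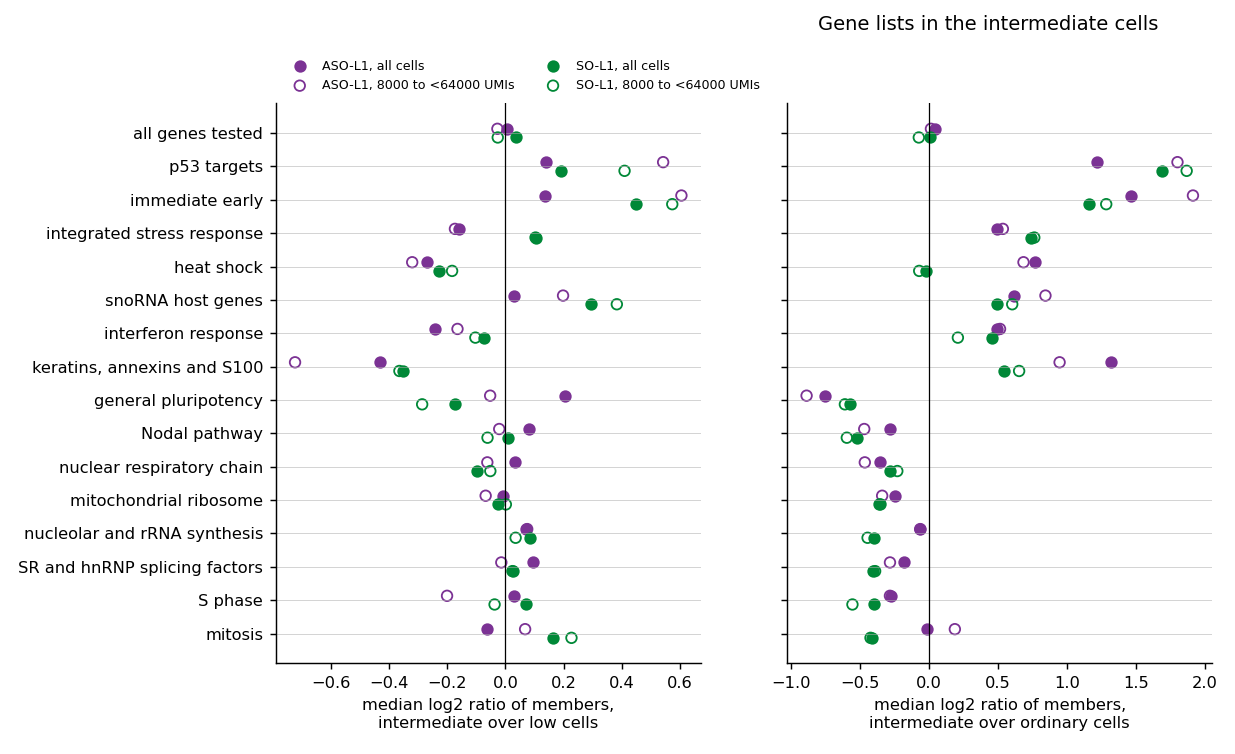
Median log2 ratio of the tested members of each gene list, intermediate over low cells (left) and over ordinary cells (right); purple is ASO-L1 and green SO-L1, filled for all cells and open for cells of 8000 to below 64000 UMIs without copies. Targets of p53 and immediate early genes lie right of 0 in both panels, keratins, annexins and S100 genes left of 0 over low cells and right of 0 over ordinary cells, and general pluripotency genes left of 0 over ordinary cells.

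Of the mitochondrially encoded protein genes, all 13 were above low cells and all 13 below ordinary cells, which follows from how the cells were chosen. Their make-up was not used in that choice. MT-CO1, a cytochrome oxidase subunit, took 17.0% of mitochondrial UMIs in intermediate, 17.7% in low and 14.03% in ordinary cells of ASO-L1 and 15.5%, 13.015% and 11.9% in SO-L1. MT-CO3 took 23.7%, 25.5% and 23.7% in ASO-L1 and 24.6%, 26.1% and 24.6% in SO-L1. MT-ND2, a complex I subunit, took 3.25%, 2.55% and 2.52% in ASO-L1 and 2.22%, 1.62% and 1.70% in SO-L1, highest in the intermediate cells of both. MT-ND3 ran below the ordinary share, at 4.15%, 3.58% and 5.05% in ASO-L1 and 3.48%, 3.55% and 4.04% in SO-L1.

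Few nuclear genes for mitochondrial proteins stood 1.5-fold from low cells. Of 74 nuclear respiratory chain genes, 0 were above and 0 below low cells by 1.5-fold in either library (medians 0.03 and -0.10), and 18 in ASO-L1 and 5 in SO-L1 were below ordinary cells (medians -0.35 and -0.28), with 0 above. Of all genes 12.3% and 5.43% were below, so the SO-L1 count is near that share. NDUFS6, a complex I subunit, stood at 191, 172 and 375 CPM in ASO-L1 and at 432, 470 and 588 CPM in SO-L1. Mitochondrial ribosomal protein genes had 15 of 76 and 10 of 72 below ordinary cells, beside 12.3% and 5.43% of all genes, with 0 above, and 0 different from low cells. Of the genes that express the mitochondrial genome, 1 of 35 differed from low cells in ASO-L1 and 0 of 23 in SO-L1. TFAM, which packages mitochondrial DNA, stood at 106, 90.2 and 116 CPM in ASO-L1 and at 48.3, 51.6 and 75.2 CPM in SO-L1, and POLRMT at 41.9, 45.1 and 41.2 CPM in ASO-L1 and at 38.8, 34.3 and 46.0 CPM in SO-L1.

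General pluripotency genes were below ordinary cells for 13 of 17 in ASO-L1 (median -0.75) and 8 of 17 in SO-L1 (-0.57), with 0 above, beside 12.3% and 5.43% of all genes below, and 0 of 17 were 1.5-fold from low cells in either library. At matched depth 2 of 17 in ASO-L1 and 1 of 16 in SO-L1 were below low cells. SOX2 stood at 165, 115 and 277 CPM in ASO-L1 and at 221, 261 and 361 CPM in SO-L1. NANOG stood at 47.8, 39.8 and 74.0 CPM in ASO-L1 and at 48.3, 54.4 and 71.5 CPM in SO-L1. POU5F1 stood at 744, 604 and 1025 CPM in ASO-L1 but at 970, 957 and 1041 CPM in SO-L1, where the classes differed little over all depths. Under 8000 UMIs, without copies, POU5F1 of SO-L1 stood at 470, 325 and 865 CPM. From 8000 to below 64000 UMIs it stood at 1086, 973 and 1053 CPM there. TERF1, a telomere-binding protein abundant in pluripotent cells, stood at 250, 220 and 658 CPM in ASO-L1 and at 556, 660 and 927 CPM in SO-L1. L1TD1, an RNA-binding protein of pluripotent cells, stood at 339, 351 and 731 CPM in ASO-L1 and at 496, 597 and 893 CPM in SO-L1. TDGF1, the Nodal co-receptor, was also lower than in ordinary cells, at 206, 179 and 410 CPM in ASO-L1 and at 229, 270 and 355 CPM in SO-L1. At matched depth TERF1 and TDGF1 of ASO-L1 stood below low cells, TERF1 at 167 CPM against 254 CPM and TDGF1 at 141 CPM against 198 CPM, as they did in SO-L1. The Nodal antagonists LEFTY1 and LEFTY2 were below ordinary cells in both libraries, LEFTY1 at 163, 161 and 234 CPM in ASO-L1 and at 126, 150 and 230 CPM in SO-L1. LEFTY2 stood at 616, 567 and 920 CPM in ASO-L1 and at 678, 539 and 1010.0 CPM in SO-L1. Of the naive markers 12 of 19 were above and 3 below ordinary cells in ASO-L1, and 2 of 8 above and 1 below in SO-L1, beside 20.5% and 12.6% of all genes above. At matched depth 7 of 16 in ASO-L1 were below low cells and 0 above (median -0.53), beside 5.78% of all genes below. In SO-L1 1 of 7 was below low cells there and 1 above, beside 2.36% of all genes below. DPPA3 stood at 83.2, 94.2 and 21.2 CPM in ASO-L1 and at 28.9, 21.5 and 11.1 CPM in SO-L1, above ordinary cells in both.

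Nucleolar genes had 3 of 39 below ordinary cells in ASO-L1, under the 12.3% of all genes, and 11 of 37 in SO-L1, above the 5.43% of all genes. NCL, a nucleolar protein of ribosome synthesis, stood at 853, 811 and 1294 CPM in ASO-L1 and at 649, 659 and 1186 CPM in SO-L1. The nuclear long RNA MALAT1 stood at 4633, 6108 and 3257 CPM in ASO-L1 and at 3953, 4861 and 2138 CPM in SO-L1, between its neighbours. NEAT1, the scaffold of paraspeckles, also lay between, at 864, 1296 and 364 CPM in ASO-L1 and at 1823, 2252 and 299 CPM in SO-L1. NPM1, another abundant nucleolar protein, stood at 1214, 1199.5 and 1902 CPM in ASO-L1 and at 1081, 1119.5 and 1486 CPM in SO-L1. Genes of S phase had 7 of 29 and 7 of 25 below ordinary cells, and mitosis genes 1 of 30 below and 5 above in ASO-L1 and 11 of 29 below and 0 above in SO-L1. Of all genes 12.3% and 5.43% were below and 20.5% and 12.6% above, so the mitosis genes of ASO-L1 did not exceed those shares in either direction. GINS2, a part of the replicative helicase, stood at 16.5, 15.3 and 55.4 CPM in ASO-L1 and at 58.7, 58.6 and 117 CPM in SO-L1. CDC20, an activator of the mitotic ubiquitin ligase, stood at 306, 378 and 149 CPM in ASO-L1 and at 107, 104 and 119.9 CPM in SO-L1, on opposite sides of the ordinary level in the libraries. Cytoplasmic ribosomal protein genes showed 0 of 79 at 1.5-fold from low cells in either library (medians 0.09 and -0.04), and 3 below ordinary cells in ASO-L1 and 0 in SO-L1. Cholesterol synthesis genes had 0 of 23 and 0 of 19 different from low cells. At matched depth 2 of 21 in ASO-L1 and 3 of 16 in SO-L1 were below low cells and 0 above, beside 5.78% and 2.36% of all genes below.

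Genes of the 8-cell stage, when the human embryo first transcribes its own genome, stood well above ordinary cells in ASO-L1 and, over all depths, had a median near the low level. Over ordinary cells 13 of 14 tested members were higher and 0 lower (median 3.55), and over low cells 1 was higher and 0 lower (-0.08), beside 20.5% of all genes above ordinary and 3.25% above low cells. At matched depth 1 of 10 was higher and 2 lower than in low cells (-0.39). KHDC1L then stood at 213 CPM against 348 CPM in low cells, and ZSCAN4, with too few UMIs there to be tested, at 4.52 CPM against 10.8 CPM. KHDC1L stood at 282, 294 and 23.4 CPM, TPRX1, a homeobox gene, at 33.0, 35.1 and 3.17 CPM, and ZSCAN4, a zinc finger gene of that stage, at 8.65, 10.4 and 0.379 CPM. In SO-L1 single cells set these levels: 373 of 398 KHDC1L UMIs (93.7%) and 65 of 71 TPRX1 UMIs came from 1 intermediate cell of 17824 UMIs, and 42 of 45 ZSCAN4 UMIs from another of 16710 UMIs. Without the 5 cells with most of its UMIs KHDC1L stood at 4.21 CPM in SO-L1 intermediate cells, against 179.7 CPM with them, and at 147 CPM in ASO-L1.

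Markers of other cell types mostly had too few UMIs to be tested. Over all depths, those of some types often stood above ordinary cells in ASO-L1, as they did in low cells. In ASO-L1 the counts 1.5-fold or more above ordinary cells were 2 of 2 tested trophectoderm markers of 11 listed (median log2 ratio 1.43), 2 of 3 amnion markers of 7 (1.33), 2 of 3 mesendoderm markers of 8 (1.57) and 3 of 4 fibroblast markers of 6 (1.099), with 0 lower, beside 20.5% of all genes higher. Low over ordinary cells gave the same counts but for the fibroblast markers, with 4 of 4. Over low cells 1 of these genes, an amnion marker, was higher and 2, fibroblast markers, lower. In SO-L1 0 markers of the first 3 lists could be tested and 2 of 2 tested fibroblast markers were above ordinary cells (0.78). Primitive endoderm markers of ASO-L1 had 1 of 3 tested above and 1 below ordinary cells (-0.58), and neural markers 0 of 2. At matched depth 0 trophectoderm markers of ASO-L1 could be tested. Of the others, 0 of 1 amnion, 2 of 3 mesendoderm and 2 of 4 fibroblast markers were above ordinary cells there, and 1 mesendoderm marker was below. COL1A2 stood at 21.1, 35.6 and 15.1 CPM in ASO-L1 and at 30.7, 45.1 and 17.7 CPM in SO-L1. VIM, an intermediate filament protein of mesenchymal cells, stood at 948, 1118 and 600 CPM in ASO-L1 and at 272, 376 and 161 CPM in SO-L1. At matched depth VIM was below ordinary cells in ASO-L1, at 530.5 CPM against 573 CPM. CER1, a mesendoderm marker, is described with the differences between the libraries. Some defining markers were at or near 0 UMIs in the intermediate cells: GATA3 of the trophectoderm had 18 in ASO-L1 and 3 in SO-L1, COL3A1 of fibroblasts 1 and 0, LUM 0 and 0, TBXT of the mesendoderm 0 and 1, and SOX17 of the endoderm 4 and 0. GATA3, COL3A1, LUM, TBXT and SOX17 were named after their values were seen. The part of such cells in the other results was not tested.

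Most genes that set the intermediate cells of the libraries apart also differed between their low cells. This sets 1 library against 1 library. Of 7436 genes tested in the intermediate cells, 342 (4.6%) stood at least 2-fold above SO-L1 in ASO-L1, and 909 (12.2%) stood as far below it. Among low cells 11% of 17815 genes were higher and 13.8% lower, and among ordinary cells 3.95% and 4.45% of 20350. Of the 342 higher genes, 281 were also 2-fold higher in low cells and 111 in ordinary cells, and 57 in neither. Of the 909 lower genes, 720 were also lower in low cells and 121 in ordinary cells, and 189 in neither. Without copies the counts were 362 higher and 915 lower.

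Highest in ASO-L1 intermediate cells by the bound nearest to 1 was CER1, which blocks Nodal and BMP ligands outside the cell, at 128 CPM against 9.48 CPM in SO-L1, 13.5-fold (8.82 to 21.9) on 1588 and 21 UMIs. It differed 14.7-fold in low and 12.99-fold in ordinary cells. TAGLN, a smooth muscle actin-binding protein, stood at 115.5 CPM in ASO-L1 against 12.2 CPM in SO-L1, and TRH, a hormone precursor, at 71.2 against 7.23 CPM. RHOB, a small GTPase, stood at 280 against 40.2 CPM, FXYD4 at 162 against 23.5 CPM and STMN4 at 139 against 19.9 CPM. At matched depth 3 of these differences were smaller, with TAGLN at 48.7 CPM in ASO-L1 against 9.17 CPM in SO-L1, TRH at 34.3 against 6.35 CPM and FXYD4 at 48.7 against 16.9 CPM. Lowest were the antisense RNA SEMA6A-AS1 at 10.5 CPM in ASO-L1 and 117 CPM in SO-L1, 0.0898 times (0.0722 to 0.111), and the mitochondrial carrier gene SLC25A21 at 7.68 CPM in ASO-L1 against 84.4 CPM in SO-L1. SRGAP1 stood at 4.53 against 42.9 CPM, the phospholipase gene PLA2G2A at 15.03 against 122 CPM, the RNA editor ADARB1 at 7.27 against 62.8 CPM and the growth factor gene NRG3 at 46.4 against 298 CPM. Without its top 5 cells in each library PLA2G2A stood at 9.79 CPM in ASO-L1 and 40.5 CPM in SO-L1, and ADARB1 at 5.38 CPM in ASO-L1 and 25.4 CPM in SO-L1.

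By list, and beside 14.9% of all tested genes at least 1.5-fold higher and 24% lower, the ASO-L1 intermediate cells had 14 of 16 snoRNA host genes higher (median log2 ratio 0.95), 9 of 13 heat shock genes (0.86), 13 of 17 keratins, annexins and S100 genes (0.92), 11 of 20 genes of the integrated stress response (0.70) and 17 of 38 nucleolar genes (0.52). Cholesterol synthesis genes had 0 of 19 higher and 7 lower (-0.33). Among 23 targets of p53, 4 were higher and 5 lower (-0.19). These medians had the same sign in low and in ordinary cells, but for p53 targets in ordinary cells (0.54). In low and ordinary cells they were 1.30 and 1.01 for snoRNA host genes and 0.94 and 0.29 for heat shock genes. Keratins, annexins and S100 genes had 1.05 and 0.75, the integrated stress response 0.46 and 0.81, nucleolar genes 0.49 and 0.14, and cholesterol synthesis -0.26 and -0.58. These lists were compared over all depths. CDKN1A over all intermediate cells was 0.980 times (0.852 to 1.13) in ASO-L1 over SO-L1, where ordinary cells differed 4.13-fold and low cells 1.35-fold. Within each range of depth it was higher in ASO-L1, at 155 CPM against 60.4 CPM in SO-L1 under 8000 UMIs, 162 against 134 CPM from 8000 to below 64000 UMIs, and 63.1 against 54.9 CPM from 64000 UMIs, without copies. The levels were farthest apart under 8000 UMIs and closer in the deeper ranges. No intervals were computed within ranges, which hold 102, 201 and 60 intermediate cells of ASO-L1 and 83, 67 and 5 of SO-L1. Whether the libraries differ within a range was not tested, nor what part their different shares of these ranges had in the near-equal level over all cells.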

How the data were processed

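Droplet-based single-cell RNA-seq of H9 cells was read from 1 ASO-L1 and 1 SO-L1 library. The authors deposited raw UMI counts per gene and barcode for 36601 genes, for which the submitters' processing notes name Cell Ranger 7.1.0 and the build hg38. For the annotation release, intron counting and cell calling, nothing is given in the sources used here. From these counts, cells were kept with at least 1000 genes and under 20% mitochondrial UMIs. UMIs were summed per class and library and divided by the sum of non-mitochondrial UMIs (12372044 in intermediate cells, 109061332 in low and 348741804 in ordinary cells of ASO-L1; 2214507, 57520938 and 193929041 in SO-L1). Shallower classes carry wider intervals. Ratios have exact conditional binomial (Clopper-Pearson) 95% intervals, and a sum of 0 was set to 3 UMIs. They take each UMI as an independent draw, so cell-to-cell spread is not in them. Genes were tested from 50 expected UMIs in the intermediate cells, the mean CPM of the 3 classes times their total: 13000 in ASO-L1 and 7256 in SO-L1, 7255 in both. A gene in a list counts as higher or lower from 1.5-fold with an interval that excludes 1. The list counts of ASO-L1 over SO-L1, and the shares of all genes beside them, use the 1.5-fold alone.

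No doublet caller was run, and no cell was left out as a doublet. The members and the gene lists were chosen with earlier results of these data known. Of 862 list entries 857 matched by symbol, 3 by identifier and 2 not at all. The naming rule gives the 6 genes most apart in low and ordinary cells per position class shared by both libraries, up to 10 above or below both classes that survive leaving out the 5 top cells, 6 per direction between libraries, up to 4 per list (2 by fold, 2 by UMIs) and a fixed set; clone-style names are left out. Positions and calls were tested on simulated data with known answers. Gene positions come from GENCODE on GRCh38, matched by identifier. Python 3.11.15, numpy 2.4.6, pandas 2.3.3, scipy 1.17.1 and matplotlib 3.10.9 were used. Alternatives varied the weighting, the total, the ranges, the depth, the filters and the barcodes.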

Additional observations from a re-analysis of the deposited data

Results flagged for a closer look

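Each of these 3 list medians pointed one way in ASO-L1 and the other way in SO-L1, and with 1 library a group the difference between the libraries was not tested. General pluripotency genes had a median log2 ratio of intermediate over low cells of 0.21 in ASO-L1 and -0.17 in SO-L1. In cells of 8000 to below 64000 UMIs both were negative, at -0.05 and -0.29. Genes of the integrated stress response had -0.16 in ASO-L1 and 0.11 in SO-L1. Naive pluripotency genes over ordinary cells had 0.99 on 19 tested genes in ASO-L1 and -0.17 on 8 tested genes in SO-L1, so the lists do not hold the same genes.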

How the results depend on the processing

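No paired analysis was possible because each group has 1 library. The main limits are depth and cell number: in SO-L1 the intermediate cells hold 2214507 non-mitochondrial UMIs, single cells carry much of a gene, and intervals leave out the spread between cells. The alternatives matched depth, thinning to 1000 UMIs, no copies and no MTRNR2L genes were chosen after seeing the data. No median position turned negative, and no list median of 1.5-fold or more changed its sign. Smaller list medians did: 111 of 1244 under an alternative, none above 0.31 in size, 16 of them among the 112 at matched depth, such as general pluripotency genes over low cells in ASO-L1 (-0.05 against 0.21). Single genes turned too. At matched depth DNMT3B stood below low cells in both libraries, and S100A11 and VIM below ordinary cells in ASO-L1. Of the main values 70 stayed within their spread and 68 moved, and of the list medians 1085 stayed and 159 moved. The causes were not tested.

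From 2000 genes the share was 3.50% in ASO-L1 and 1.87% in SO-L1 and 0 genes were below both classes. Without shared barcodes it was 7.18% in ASO-L1. Median positions of higher and lower genes in ASO-L1 were 0.98 and 0.94 without shared barcodes, 0.93 and 1.005 for cells of 1% to 2%, 0.80 and 0.76 for 2% to 3%, 1.01 and 1.08 without cells above the 90th percentile of UMIs, 0.87 and 0.68 from 4-fold, 0.85 and 0.87 from 200 UMIs, 0.83 and 0.90 on a linear scale, and 1.02 and 1.13 at matched depth. With equal weight per cell higher genes had 1.08. In SO-L1 higher genes had 1.07 with equal weight, 0.92 on a linear scale, 0.86 for 2% to 3%, 0.87 from 200 UMIs and 0.92 at matched depth. Lower genes in SO-L1 had 0.80 with equal weight, 0.79 on a linear scale, 0.82 without the deepest cells, 0.83 without shared barcodes, 0.43 from 4-fold on 2 genes and 0.94 at matched depth.

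Genes above and below both classes in both libraries, 16 and 1 in the text, were 69 and 2 with equal weight, 40 and 2 for 1% to 2%, 0 and 0 for 2% to 3%, 73 and 6 without the deepest cells, 30 and 3 without shared barcodes, 0 and 0 from 200 UMIs, 7 and 0 from 2-fold and 47 and 4 at matched depth. With mitochondrial genes in the total 0 were below. Genes 2-fold higher and lower in ASO-L1 than in SO-L1 were 148 and 246 for 2% to 3% and 86 and 215 from 200 UMIs, and 584 were lower at matched depth.

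The share of cells scoring above the ordinary 95th percentile was 42.0% in ASO-L1 and 75.2% in SO-L1 with genes from 2-fold, 41.0% and 76.2% without MTRNR2L genes, 11.8% and 34.7% above the 99th percentile, and 41.0% and 37.1% thinned to 1000 UMIs. It was 63.7% in ASO-L1 at matched depth. The share below the low 5th percentile was 0.656% and 0% below the 1st percentile, 9.64% and 12.9% with no thinning, and in ASO-L1 1.102% thinned to 1000.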
